A study of Homo sapiens with 6 samples.

Results

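Noradrenergic core transcription factors are the 9 genes PHOX2A, HAND2, GATA2, GATA3, ISL1, TBX2, MEIS2, KLF7 and MYCN, which were picked by exact gene symbol from the 32575 genes listed in the deposited tables. All 9 were listed in every library and all 9 passed the filter on low values. The study sequenced messenger RNA of SH-SY5Y, an established human neuroblastoma cell line that grows as neuroblast-like cells, after knockdown of a Cockayne syndrome gene. One group of 2 libraries came from cells carrying a lentiviral short hairpin RNA against CSA (gene ERCC8), one group of 2 from cells with a hairpin against CSB (gene ERCC6), and one group of 2 from cells with a control hairpin. Every group, controls included, was transduced, selected with puromycin and cultured for 2 to 3 weeks. In the labels the genotype reads mutant for depleted cells and wild type for controls, while the protocols speak of hairpins, and the groups are called CSA knockdown, CSB knockdown and control here. The sources used here do not give how many hairpins or transductions stand behind a group, so a p-value measures only how these libraries scatter, and that scatter may be technical.

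In neuroblastoma cells of the noradrenergic state, several of these factors bind the enhancers of their own genes and of one another, and together help keep the cell's identity. Their known targets include the enzymes and transporters that make, store and take up noradrenaline. A second, mesenchymal state of neuroblastoma uses a different set of factors, among them SNAI2, TWIST1 and FOSL1. PHOX2A, ISL1 and MEIS2 are homeodomain proteins, HAND2 and MYCN are helix-loop-helix proteins, GATA2, GATA3 and KLF7 have zinc fingers, and TBX2 is a T-box repressor.

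Levels are given as scaled counts, which are a gene's reads divided by 1 size factor per library. Recovered reads numbered 19368272 to 26758162 per library. The hairpins lowered their targets: ERCC8 had 61.8 and 57.2 scaled counts in the CSA knockdown, against 218.8 and 217.0 in the control, and ERCC6 had 257.6 and 302.0 in the CSB knockdown, against 614.7 and 593.2 in the control. The markers fixed for neuroblastoma cells summed to 113266 to 116647 scaled counts in the CSA knockdown and 83950 to 85207 in the CSB knockdown. In the control they summed to 95799 to 97931. This list includes the core factors PHOX2A and GATA3, so its sum is not independent of them. In the control PHOX2A had 14567 and 13724 of these counts, and GATA3 had 13076 and 13315. The sum also hides opposite moves: 3 of the listed markers rose and 5 fell in the CSB knockdown, and 5 rose and 2 fell in the CSA knockdown. Among noradrenergic genes, DBH, the enzyme that turns dopamine into noradrenaline, had 7313 to 14528 scaled counts across the 6 libraries, whereas TH, the first enzyme of catecholamine synthesis, had 2.86 to 20.3, and SLC18A2, a vesicular monoamine transporter, had 9.95 to 20.6. Other effector genes on the list were higher: DDC had 1145 to 2065 scaled counts, SLC6A2 2077 to 5145 and SLC18A1 183.3 to 860.6. The label noradrenergic is thus borne out by DBH, DDC and SLC6A2, while the low values of TH and SLC18A2 go against it. Schwann cell markers SOX10 and CDH19, blood markers CD68 and CD3E, the endothelial marker PECAM1 and the fibroblast marker POSTN were at 0 in all libraries. The other markers of these lists had counts. Fibroblast markers summed to 7836 to 8180 scaled counts in the CSA knockdown, 15652 to 16472 in the CSB knockdown and 12296 to 12625 in the control. In the same order, Schwann cell markers summed to 112.5 to 114.9, 122.1 to 150.8 and 120.6 to 122.3. Endothelial markers summed to 10.8 to 17.2, 10.7 to 15.4 and 9.65 to 15.9. Blood cell markers summed to 5.72 to 14.3 scaled counts in the knockdown libraries and to 10.9 and 387.8 in the control, the high value coming from 1 gene in 1 control library.

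Promoters are shown for 4 factors whose responses differed: GATA3 and ISL1, which were lower in the CSA knockdown and higher in the CSB knockdown than in the control, MYCN, which was higher in the CSB knockdown, and KLF7, which was higher in the CSA knockdown. Each holds 250 bases before and 50 after the start, from RefSeq on GRCh38.p14, 5′ to 3′ on the gene's strand. Capitals mark matches on either strand to the E-box CANNTG, to GATAA and to the homeodomain core TAAT. The positions are chr10:8053391-8053690 (plus strand) for GATA3, chr5:51383198-51383497 (plus strand) for ISL1, chr2:15940300-15940599 (plus strand) for MYCN and chr2:207167197-207167496 (minus strand) for KLF7.
GATA3: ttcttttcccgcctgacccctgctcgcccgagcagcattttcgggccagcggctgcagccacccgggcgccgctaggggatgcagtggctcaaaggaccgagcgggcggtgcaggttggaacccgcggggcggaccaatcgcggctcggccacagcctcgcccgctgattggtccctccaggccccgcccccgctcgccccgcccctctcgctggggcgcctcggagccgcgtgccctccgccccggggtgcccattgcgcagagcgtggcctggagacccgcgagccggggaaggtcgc
ISL1: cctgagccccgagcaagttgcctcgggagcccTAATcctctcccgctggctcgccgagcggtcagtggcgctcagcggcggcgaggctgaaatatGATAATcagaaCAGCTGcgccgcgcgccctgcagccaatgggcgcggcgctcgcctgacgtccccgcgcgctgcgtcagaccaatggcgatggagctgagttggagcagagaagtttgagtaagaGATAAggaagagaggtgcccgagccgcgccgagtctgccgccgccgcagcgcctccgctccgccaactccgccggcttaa
MYCN: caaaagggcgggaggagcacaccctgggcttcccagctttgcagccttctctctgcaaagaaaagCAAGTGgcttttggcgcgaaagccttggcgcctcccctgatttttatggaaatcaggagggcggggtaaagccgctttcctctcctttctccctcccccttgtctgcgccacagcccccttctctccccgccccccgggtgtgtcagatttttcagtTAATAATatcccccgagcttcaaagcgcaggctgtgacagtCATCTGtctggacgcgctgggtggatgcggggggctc
KLF7: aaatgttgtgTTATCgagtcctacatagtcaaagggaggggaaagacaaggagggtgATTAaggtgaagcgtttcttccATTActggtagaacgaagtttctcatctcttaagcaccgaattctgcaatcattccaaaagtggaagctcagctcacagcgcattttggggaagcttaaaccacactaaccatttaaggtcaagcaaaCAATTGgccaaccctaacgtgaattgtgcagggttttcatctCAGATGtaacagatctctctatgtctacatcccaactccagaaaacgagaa

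The GATA3 window shown held none of the 3 motifs. ISL1 had 1 E-box, 2 GATAA and 2 TAAT matches, and in one place GATAA and TAAT share bases. MYCN had 2 E-boxes and 2 TAAT matches that share bases, and KLF7 had 2 E-boxes, 1 GATAA and 2 TAAT matches. RefSeq promoters were matched by symbol for 8 of the 9 factors, all but TBX2. The table holds 6 promoters for GATA3, 4 for KLF7, 2 each for GATA2 and MEIS2 and 1 for each of the others, and the window whose start lies nearest to the gene start in the deposited tables was used. Each count out of 8 is for 1 window a gene. CANNTG, a sequence that helix-loop-helix proteins such as HAND2 recognise, was in 5 of these 8 and in 68.7% of all 35116 promoters. GATAA was in 3 of 8 and 22.7% of all, and TAAT in 5 of 8 and 50.2% of all. The MYC-type E-box CACGTG, which is one form of CANNTG, was in 0 of 8 and 7.26% of all. The MEIS sequence TGACAG was in 1 of 8 and 15.8% of all, the T-box core GGTGTG in 4 of 8 and 16.8%, and the KLF sequence CACCC, whose matches can share bases with those of GGTGTG, in 5 of 8 and 59.9%. These matches are descriptions of letters in a window. For PHOX2A and MEIS2 the RefSeq start lies 1488 and 2193 bases from the start in the deposited tables.

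The 9 factors spanned a wide range of levels. Per kilobase of the gene length in the deposited tables, PHOX2A stood at 10038 scaled counts in the CSB knockdown and 7929 in the control, and MYCN at 98.3 and 45.2. In the control the order per kilobase was PHOX2A, HAND2, GATA2, GATA3, TBX2, ISL1, MEIS2, KLF7 and MYCN, and no neighbours in this order had overlapping libraries. The CSB knockdown kept this order, again without overlap between neighbours. The CSA knockdown had HAND2 first with 8360 and PHOX2A next with 8030 scaled counts per kilobase, and ISL1 with 860.9 before TBX2 with 837.8. Both of these pairs had overlapping libraries and were not distinguished. HAND2 lay at the 99.8th percentile of the 28388 tested genes per kilobase in the CSA knockdown, and MYCN at the 61.8th.

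**Figure D1:**
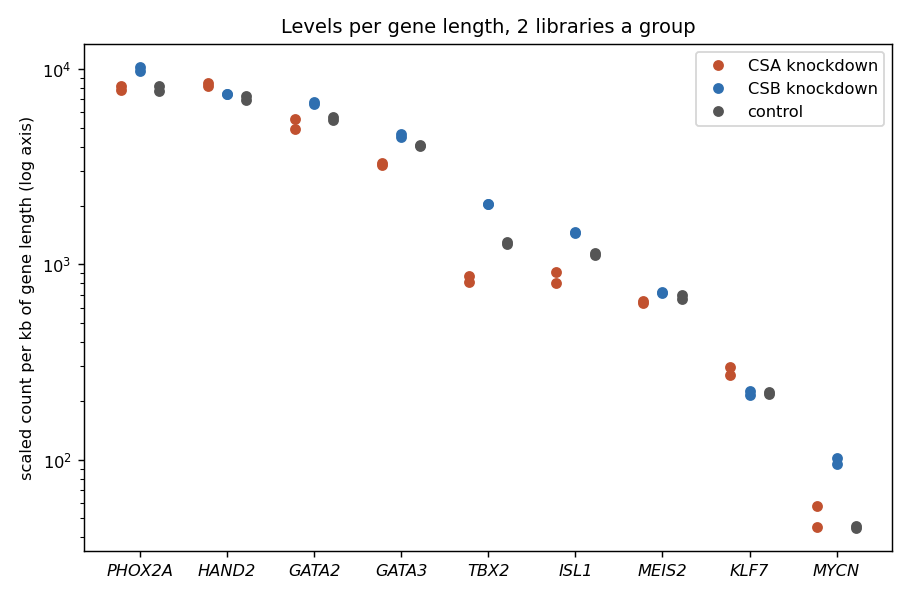
Scaled count per kilobase of gene length (log axis) of the 9 factors in each of the 2 libraries of the CSA knockdown (red), CSB knockdown (blue) and control (grey). The factors are ordered by their control mean, from PHOX2A at 7929 to MYCN at 45.2, and in the CSA knockdown the libraries of HAND2 and PHOX2A overlap, as do those of ISL1 and TBX2.

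CSA knockdown lowered 3 of the 9 factors, GATA3, ISL1 and TBX2, and raised 2, HAND2 and KLF7. CSB knockdown raised 6, PHOX2A, GATA2, GATA3, ISL1, TBX2 and MYCN, and lowered none. These counts come from limma on log2(scaled count + 1), fitted to all tested genes, with an adjusted p below 0.05. In the CSA comparison 18.8% of all tested genes were called, 8.37% up and 10.4% down, and in the CSB comparison 23.6% were called, 14.8% up and 8.86% down. Of the 5122 genes with a mean of at least 1000 scaled counts, as 8 of the factors have, 41.8% were called in the CSA comparison and 54.6% in the CSB comparison. The factors' shares were 55.6% and 66.7%. The median log2 fold change of the factors was -0.09 in the CSA knockdown, against 0.00482 over all tested genes, and 0.26 in the CSB knockdown, against 0.0967 over all. Both comparisons use the same 2 control libraries.

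**Figure D2:**
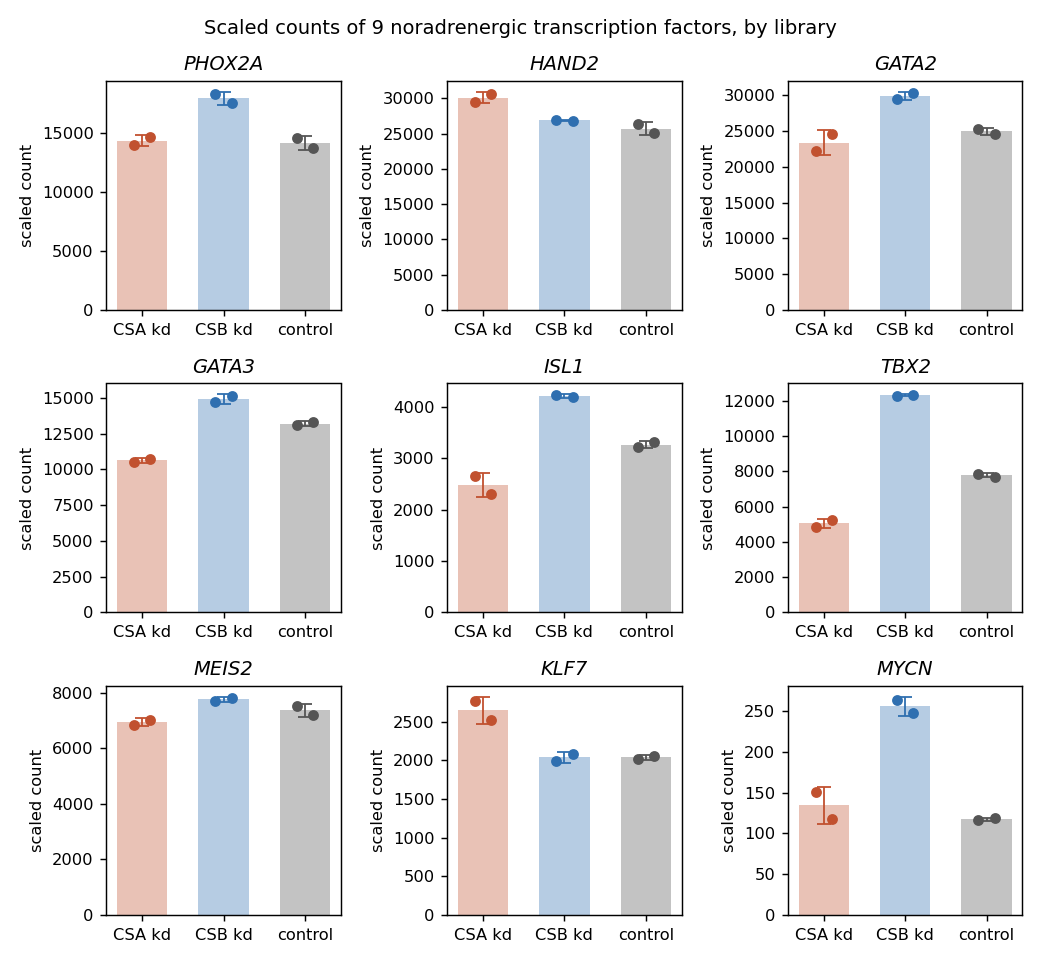
Scaled counts of each factor by library (points), with the group mean (bar) and SD (whisker, n = 2), for the CSA knockdown, CSB knockdown and control. TBX2 has 4869 and 5233 in the CSA knockdown, 12273 and 12343 in the CSB knockdown and 7868 and 7704 in the control, and MYCN stands out in the CSB knockdown with 264.2 and 247.5.

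PHOX2A, a homeodomain factor that activates the DBH promoter, lies at chr11:72239077-72245664 on the minus strand of hg38. It had 13981 and 14669 scaled counts in the CSA knockdown, 18293 and 17521 in the CSB knockdown, and 14567 and 13724 in the control. Both CSB knockdown libraries lay above the other 4, and the CSA knockdown and control libraries overlapped. PHOX2A rose 1.27-fold in the CSB knockdown (log2 change of 0.34 ± 0.05 SE, adjusted p = 0.000526). In the CSA knockdown its log2 fold change was 0.02, with a 95% interval of -0.10 to 0.13 (adjusted p = 0.864). The rise in the CSB knockdown lost its call when either control library (adjusted p = 0.0538 and 0.08) or either CSB knockdown library (0.0846 and 0.0729) was left out.

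HAND2, a helix-loop-helix factor needed for sympathetic neuron development, lies at chr4:173524969-173530229 on the minus strand. It had 29528 and 30682 scaled counts in the CSA knockdown, 26956 and 26831 in the CSB knockdown, and 26360 and 25082 in the control. The CSA knockdown libraries were the highest of the 6, and no groups overlapped. HAND2 rose 1.17-fold in the CSA knockdown (log2 change of 0.23 ± 0.05 SE, adjusted p = 0.00858). In the CSB knockdown the log2 fold change was 0.06, with a 95% interval of -0.05 to 0.18 (adjusted p = 0.437), and its sign turned under other scalings (-0.01 with TMM). The rise in the CSA knockdown held without CSA knockdown replicate 1 and was lost without any other single library, with an adjusted p of up to 0.199 without control replicate 2.

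The GATA factors recognise a shared core sequence. GATA2, at chr3:128479427-128493185 on the minus strand, had 22132 and 24636 scaled counts in the CSA knockdown, 29436 and 30273 in the CSB knockdown, and 25318 and 24568 in the control. Its CSB knockdown libraries were the highest, and those of the CSA knockdown overlapped the control. GATA2 rose 1.20-fold in the CSB knockdown (log2 change of 0.26 ± 0.06 SE, adjusted p = 0.00669), while in the CSA knockdown the log2 fold change was -0.10 with a 95% interval of -0.22 to 0.03 (adjusted p = 0.323). The rise was lost with TMM scaling (adjusted p = 0.0522), without either control library (0.153 and 0.197) and without either CSB knockdown library (0.157 and 0.222).

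GATA3, at chr10:8053604-8075198 on the plus strand, is required for noradrenergic differentiation of sympathetic neurons. It had 10527 and 10761 scaled counts in the CSA knockdown, 14691 and 15147 in the CSB knockdown, and 13076 and 13315 in the control. The 3 groups were separate, with the CSA knockdown lowest and the CSB knockdown highest. GATA3 fell in the CSA knockdown (log2 change of -0.31 ± 0.05 SE, adjusted p = 0.000566) and rose 1.13-fold in the CSB knockdown (0.18 ± 0.05 SE, adjusted p = 0.0169). The fall was lost without either control library (adjusted p = 0.0686 and 0.074). The rise was lost under 4 other scalings or tests, with adjusted p from 0.143 with DESeq2 to 0.214 with TMM, without either control library (0.169 and 0.134) and without either CSB knockdown library (0.0891 and 0.13).

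ISL1, a LIM-homeodomain factor of sympathetic and motor neurons, lies at chr5:51383391-51394738 on the plus strand. It had 2648 and 2315 scaled counts in the CSA knockdown, 4237 and 4188 in the CSB knockdown, and 3221 and 3310 in the control. Again the 3 groups were separate, with the CSA knockdown lowest. ISL1 fell in the CSA knockdown (log2 change of -0.40 ± 0.06 SE, adjusted p = 0.000634) and rose 1.29-fold in the CSB knockdown (0.37 ± 0.06 SE, adjusted p = 0.000926). The fall was lost without either control library (adjusted p = 0.105 and 0.112) or either CSB knockdown library (0.0738 and 0.0926), and the rise without either control library (0.113 and 0.0903) or either CSB knockdown library (0.13 and 0.138).

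TBX2, a T-box repressor, had the widest spread of the 9, with the highest library 2.54 times the lowest. It lies at chr17:61399896-61409466 on the plus strand and had 4869 and 5233 scaled counts in the CSA knockdown, 12273 and 12343 in the CSB knockdown, and 7868 and 7704 in the control. All 3 groups were separate by far more than the difference between libraries of a group. TBX2 fell in the CSA knockdown (log2 change of -0.63 ± 0.05 SE, adjusted p = 3.74e-06) and rose 1.58-fold in the CSB knockdown (0.66 ± 0.05 SE, adjusted p = 2.32e-06). Both calls held under all 17 alternative settings.

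MEIS2, a homeodomain factor of the TALE class, was the steadiest, with the highest library 1.15 times the lowest. It lies at chr15:36889204-37101299 on the minus strand and had 6834 and 7039 scaled counts in the CSA knockdown, 7700 and 7831 in the CSB knockdown, and 7537 and 7216 in the control. The groups did not overlap, yet neither difference from the control passed the test. The log2 fold change was -0.09 in the CSA knockdown (95% interval -0.19 to 0.02, adjusted p = 0.251) and 0.07 in the CSB knockdown (-0.03 to 0.18, adjusted p = 0.32), a value that turned to -0.002 with TMM scaling.

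KLF7, a Krüppel-like zinc finger factor that is required for neuronal development in mice, lies at chr2:207074137-207167267 on the minus strand. It had 2772 and 2525 scaled counts in the CSA knockdown, 1988 and 2087 in the CSB knockdown, and 2016 and 2062 in the control. The CSA knockdown libraries were the highest, and the CSB knockdown libraries lay on both sides of the control. KLF7 rose 1.3-fold in the CSA knockdown (log2 change of 0.38 ± 0.06 SE, adjusted p = 0.000602). In the CSB knockdown the log2 fold change was -0.00, with a 95% interval of -0.13 to 0.12. The rise was lost without either control library (adjusted p = 0.1 and 0.0778) or either CSB knockdown library (0.0508 and 0.0617).

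MYCN, the oncogene amplified in a subset of neuroblastomas but not in SH-SY5Y, was the least expressed factor and had the largest fold change from the control. It lies at chr2:15940564-15947007 on the plus strand and had 150.7 and 118.3 scaled counts in the CSA knockdown, 264.2 and 247.5 in the CSB knockdown, and 116.4 and 118.6 in the control. The recovered reads behind these values were 139 and 124 in the CSA knockdown, 240 and 300 in the CSB knockdown, and 117 and 123 in the control. Both CSB knockdown libraries were clear of the other 4, among which CSA knockdown and control overlapped. MYCN rose 2.17-fold in the CSB knockdown (log2 change of 1.12 ± 0.13 SE, adjusted p = 6.06e-05). In the CSA knockdown the log2 fold change was 0.18, with a 95% interval of -0.10 to 0.47 (adjusted p = 0.4). The rise was lost when either CSB knockdown library was left out (adjusted p = 0.0588 and 0.062).

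**Figure D3:**
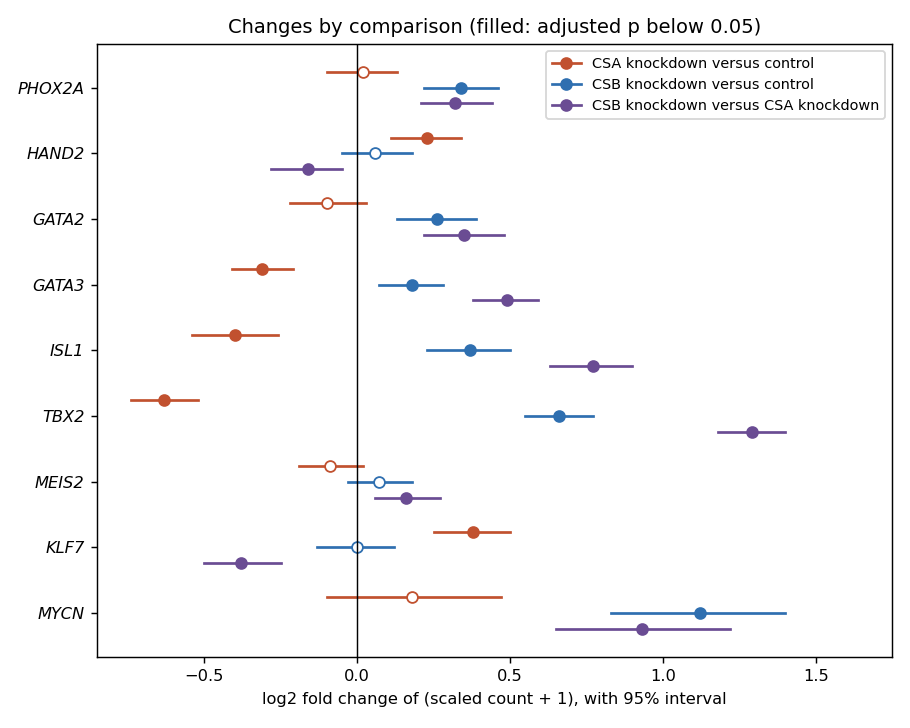
Log2 fold changes of log2(scaled count + 1) with 95% intervals (lines) for the CSA knockdown versus control (red), the CSB knockdown versus control (blue) and the CSB versus the CSA knockdown (purple). Filled points passed an adjusted p below 0.05, which all 9 did in the last comparison, from -0.38 for KLF7 to 1.29 for TBX2.

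Set directly against each other, the 2 knockdowns differed at all 9 factors. PHOX2A, GATA2, GATA3, ISL1, TBX2, MEIS2 and MYCN were higher in the CSB than in the CSA knockdown, and HAND2 and KLF7 were lower. In this comparison 29.4% of all tested genes were called, 18.1% up and 11.3% down, and 59.9% of the genes with a mean of at least 1000. This contrast equals the difference between the 2 knockdown effects, because the control cancels. TBX2 was 2.44-fold higher in the CSB knockdown (log2 change of 1.29 ± 0.05 SE, adjusted p = 3.09e-09), MYCN 1.91-fold (0.93 ± 0.13, adjusted p = 0.000142), ISL1 1.70-fold (0.77 ± 0.06, adjusted p = 1.38e-06) and GATA3 1.40-fold (0.49 ± 0.05, adjusted p = 6.79e-06). GATA2 was 1.28-fold higher (0.35 ± 0.06, adjusted p = 0.000567), PHOX2A 1.25-fold (0.32 ± 0.05, adjusted p = 0.00052) and MEIS2 1.1-fold (0.16 ± 0.05, adjusted p = 0.0223). KLF7 was lower in the CSB knockdown, with a log2 fold change of -0.38 ± 0.06 SE (adjusted p = 0.000302), and so was HAND2, with -0.16 ± 0.05 SE (adjusted p = 0.0335).

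The differences at TBX2, ISL1 and GATA3 between the knockdowns held under all 17 alternatives. Those at PHOX2A (adjusted p = 0.0726 and 0.0589), GATA2 (0.0768 and 0.113), KLF7 (0.065 and 0.0545) and MYCN (0.0607 and 0.0599) were lost without either CSB knockdown library. MEIS2 lost its call in 12 of the 17 alternatives, with adjusted p up to 0.342 with edgeR, and with each of the 6 libraries left out. HAND2 lost it in 8, namely with a pseudocount of 5, in a fit of only these 2 groups, with the replicate block and without any single library but CSA knockdown replicate 1 (adjusted p up to 0.211). With other scalings the balance of calls over all genes moved: 62.5% of the called genes rose in the CSB knockdown against the control, but 47.7% did with TMM, and 61.5% rose against the CSA knockdown, but 50.6% did with TMM. In the CSB knockdown against the control, TMM left 4 factors called (PHOX2A, ISL1, TBX2 and MYCN), all higher.

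Several factors overlap genes on the opposite strand, and whether the counting used strand is not stated in the sources at hand. If it did not, reads in exon bases shared by both genes could belong to either. The overlaps given are between whole gene spans, introns included. Of the 50-base windows of the longest protein-coding transcripts of GATA2 and TBX2, 0% occur in an annotated transcript of another gene. HAND2-AS1, which overlaps HAND2 by 2960 bases, had 18928 and 18720 scaled counts in the CSA knockdown, 23374 and 23074 in the CSB knockdown, and 17601 and 17436 in the control. It rose in the CSB knockdown (log2 change of 0.41, adjusted p = 5.9e-05), so that it reached 86.7 and 86.0% of the HAND2 value there, against 66.8 and 69.5% in the control. TBX2-AS1, which spans all 9571 bases of TBX2, had 888.8 and 945.1 scaled counts in the CSA knockdown, 1599 and 1619 in the CSB knockdown, and 1450 and 1515 in the control. It fell in the CSA knockdown (log2 fold change -0.69), as TBX2 did, but in the CSB knockdown its log2 fold change was 0.12 and did not pass the test. TBX2-AS1 was 18.3 and 18.1% of TBX2 in the CSA knockdown, 13.0 and 13.1% in the CSB knockdown, and 18.4 and 19.7% in the control.

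GATA2-AS1, which overlaps GATA2 by 3974 bases, fell in the CSA knockdown (log2 change of -0.31, adjusted p = 0.0465) and rose in the CSB knockdown (0.36), at 2.24 to 3.07% of the GATA2 value across libraries. Both GATA2-AS1 calls were lost with upper quartile scaling, with DESeq2 and without either control or either CSB knockdown library, the fall also under 4 more settings, CSA knockdown replicate 1 left out among them (largest adjusted p 0.373 for the fall and 0.307 for the rise). GATA3-AS1, which starts within 5 kb of GATA3, fell in the CSA knockdown (-0.53), a call lost without either control or either CSB knockdown library (adjusted p up to 0.152). MYCNOS, the antisense transcript over the start of MYCN, had 17.3 and 15.3 scaled counts in the CSA knockdown, 36.3 and 22.3 in the CSB knockdown, and 13.9 and 10.6 in the control, and rose in the CSB knockdown (1.16, adjusted p = 0.0347), a call lost with no filter, with DESeq2 and with each single library left out (adjusted p up to 0.226). Its part in the MYCN value was not tested. In the longest protein-coding transcript of each factor, little sequence was shared with other genes. Of its 50-base windows, 4.21% for HAND2 occur in HAND2-AS1, 1.96% for MYCN in MYCNOS and 0.192% for KLF7 in the pseudogene KLF7P1. None of those of the other 6 factors occur in another gene's annotated transcript. The rest of the counted length was not searched: for TBX2 the transcript has 3339 bases and the gene length is 6029. INPPL1, on the opposite strand, overlaps PHOX2A by 29 bases, fewer than a window holds. It rose in the CSB knockdown (0.63), and its part in the PHOX2A value was not tested.

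**Figure D4:**
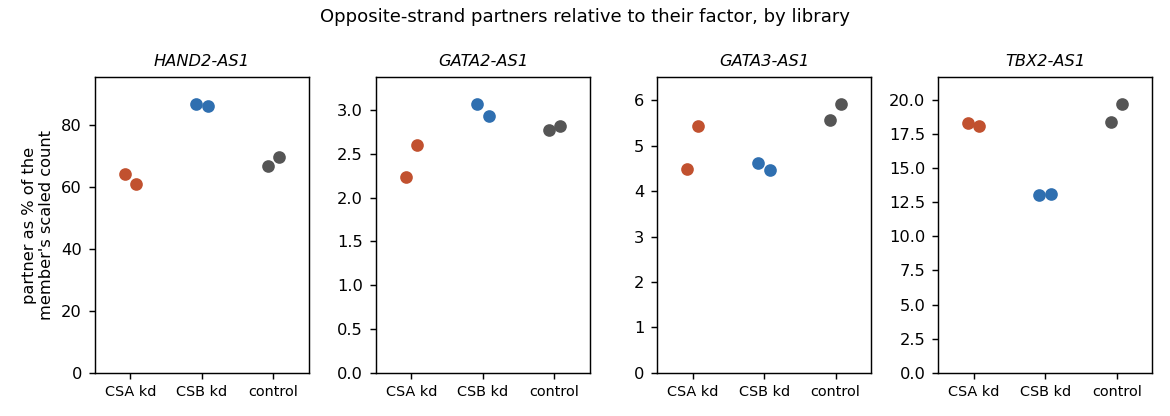
Scaled count of 4 opposite-strand genes as a percentage of that of their factor, in the 2 libraries of the CSA knockdown, CSB knockdown and control (points). HAND2-AS1 is highest relative to HAND2 in the CSB knockdown (86.7 and 86.0%), and TBX2-AS1 is lowest relative to TBX2 there (13.0 and 13.1%).

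The remaining noradrenergic factors on the list moved in both directions. Of 16 other noradrenergic transcription factors, 3 rose and 8 fell in the CSA knockdown (median log2 fold change -0.18). In the CSB knockdown 9 rose and 2 fell (0.22), and 10 were higher and 4 lower there than in the CSA knockdown (0.33). Called were 68.8% in the CSA comparison, 68.8% in the CSB comparison and 87.5% between the knockdowns. Over all tested genes these shares were 18.8, 23.6 and 29.4%. Over genes with a mean of at least 1000 they were 41.8, 54.6 and 59.9%. SATB1, a chromatin organiser, had 2636 and 2575 scaled counts in the CSA knockdown, 7003 and 7281 in the CSB knockdown, and 4011 and 4147 in the control. It fell in the CSA knockdown (log2 fold change -0.65 ± 0.05 SE) and rose in the CSB knockdown (0.81 ± 0.05 SE). HEY1, a Notch target, did likewise, with log2 fold changes of -0.62 in the CSA knockdown and 0.47 in the CSB knockdown. SOX11, a factor of immature neurons, rose in the CSB knockdown (0.66) and fell in the CSA knockdown (-0.28), the fall being lost without either control or either CSB knockdown library (adjusted p up to 0.168). DACH1 had 265.6 and 299.5 scaled counts in the CSA knockdown, 83.7 and 80.9 in the CSB knockdown, and 189.0 and 172.7 in the control. It fell in the CSB knockdown (-1.13) and rose in the CSA knockdown (0.64), the rise being lost without any single library but CSA knockdown replicate 1 (adjusted p up to 0.0866). INSM1, known as an early sympathoadrenal factor, was near the floor, with 11.9 and 3.81 scaled counts in the CSA knockdown, 0 and 0 in the CSB knockdown, and 1.99 and 0 in the control. Leaving out any 1 library gave 5 to 8 calls in place of 11 in the CSA comparison, lowest without either control library, and 7 in place of 11 in the CSB comparison without control replicate 2.

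The effector genes of the noradrenergic state were mostly higher in the CSA knockdown. Of 15 such genes, 12 rose and 1 fell in the CSA knockdown (median log2 fold change 0.72). In the CSB knockdown 2 rose and 6 fell (-0.15), and 1 was higher and 12 lower there than in the CSA knockdown (-1.03). Effectors were called at 86.7% in the CSA comparison, 53.3% in the CSB comparison and 86.7% between the knockdowns. For all tested genes the values were 18.8, 23.6 and 29.4%, and with a mean of at least 1000 they were 41.8, 54.6 and 59.9%. CHGA, a core protein of catecholamine granules, had 22906 and 25867 scaled counts in the CSA knockdown, 3566 and 3681 in the CSB knockdown, and 15330 and 14469 in the control, so that the CSB knockdown lay far below the other groups. Its log2 fold change was 0.71 ± 0.06 SE in the CSA knockdown (adjusted p = 6.58e-06) and -2.04 ± 0.06 SE in the CSB knockdown (adjusted p = 3.18e-09). CHGB, a second granule protein, rose in the CSA knockdown (1.09) and fell in the CSB knockdown (-1.13), as did CYB561, which carries electrons into the granule for DBH (0.76 and -1.38). SLC18A1, a vesicular monoamine transporter, had 860.6 and 788.7 scaled counts in the CSA knockdown, 216.9 and 217.8 in the CSB knockdown, and 193.0 and 183.3 in the control, and rose in the CSA knockdown (2.12 ± 0.08 SE). GCH1, which makes the cofactor of TH, rose in the CSA knockdown (0.89) and fell in the CSB knockdown (-0.53), the fall being lost without control replicate 2, CSA knockdown replicate 2 or either CSB knockdown library (adjusted p up to 0.116). TH was the 1 effector that fell in the CSA knockdown, with 5.42 and 2.86 scaled counts there, 8.81 and 11.6 in the CSB knockdown, and 13.9 and 20.3 in the control, and its fall was lost with DESeq2 and with each single library left out (adjusted p up to 0.178). The count of 8 effectors called in the CSB comparison was 4 without control replicate 2 or without CSB knockdown replicate 1, and 5 without either of the other control and CSB knockdown libraries.

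Genes of proteins that bind the factors moved in both directions. Of 19 binding partners, 2 rose and 6 fell in the CSA knockdown (median log2 fold change -0.13). In the CSB knockdown 7 rose and 3 fell (0.20), and 11 were higher and 3 lower there than in the CSA knockdown (0.37). Partners called made up 42.1% in the CSA comparison, 52.6% in the CSB comparison and 73.7% between the knockdowns. All tested genes had 18.8, 23.6 and 29.4%, and genes with a mean of at least 1000 had 41.8, 54.6 and 59.9%. LMO4, which competes with LIM-homeodomain proteins such as ISL1 for the adaptor LDB1, had 825.9 and 861.2 scaled counts in the CSA knockdown, 4466 and 4339 in the CSB knockdown, and 2284 and 2046 in the control. It fell in the CSA knockdown (log2 fold change -1.36 ± 0.06 SE) and rose in the CSB knockdown (1.03 ± 0.06 SE). LDB1 itself rose in the CSB knockdown (0.72), with a log2 fold change of -0.01 in the CSA knockdown. LMO3 had 840.0 and 773.4 scaled counts in the CSA knockdown, 380.9 and 332.5 in the CSB knockdown, and 944.9 and 920.2 in the control, and fell in the CSB knockdown (-1.39). The GATA cofactor ZFPM1 rose in the CSB knockdown (0.74), a call lost without either CSB knockdown library (adjusted p up to 0.121). TCF4, an E protein that pairs with HAND2-type factors, rose in the CSA knockdown (0.34) and fell in the CSB knockdown (-0.30). Both TCF4 calls were lost without either control library, the fall also without either CSB knockdown library (largest adjusted p 0.0712 for the rise and 0.0675 for the fall). Without control replicate 1 the count of 8 partners in the CSA comparison was 1, and 2 to 4 without any other library. Without either CSB knockdown library the count of 10 in the CSB comparison was 4, and without a control library 5 or 6. The 14 called between the knockdowns were 9 without control replicate 1 or CSA knockdown replicate 2, 8 without CSB knockdown replicate 1 and 7 without CSB knockdown replicate 2.

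MYC was the more abundant MYC family gene in every library. Per kilobase, MYC stood at 452.4 scaled counts in the CSA knockdown, 681.5 in the CSB knockdown and 652.3 in the control, against 51.7, 98.3 and 45.2 for MYCN. MYC fell in the CSA knockdown (log2 change of -0.53 ± 0.05 SE, adjusted p = 2.07e-05), and its log2 fold change in the CSB knockdown was 0.06, with a 95% interval of -0.05 to 0.18. Of 12 genes of the MYC network and of MYCN stability, 4 rose and 6 fell in the CSA knockdown (median -0.23). In the CSB knockdown 6 rose and none fell (0.20), and 7 were higher and 2 lower there than in the CSA knockdown (0.31). Of all tested genes 18.8, 23.6 and 29.4% were called in these comparisons. Of genes with a mean of at least 1000, 41.8, 54.6 and 59.9% were. The network's share lay below this last background in the CSB comparison (6 of 12) and above it in the CSA comparison and between the knockdowns. MYCL and MXD1 are among its genes that do not reach that mean. AURKA, a kinase that stabilises the MYCN protein, fell in the CSA knockdown (-0.40), and its value in the CSB knockdown was 0.07. MXD3, a MAX partner that opposes MYC, fell in the CSA knockdown (-0.54) and rose in the CSB knockdown (0.72). Its fall was lost without any single library (adjusted p up to 0.179) and its rise without either control or either CSB knockdown library (0.113). MXD4, an antagonist of MYC that also pairs with MAX, rose in both knockdowns (0.38 and 0.67), a call lost in the CSA comparison without either control or either CSB knockdown library (adjusted p up to 0.125) and in the CSB comparison without CSB knockdown replicate 2 (0.0579). The count of 10 network genes called in the CSA comparison was 3 without control replicate 1 or CSB knockdown replicate 2, and 4 to 6 without any other library. The count of 6 in the CSB comparison was 0 without CSB knockdown replicate 2, 1 or 2 without CSB knockdown replicate 1 or a control library, and 3 with DESeq2. The 9 called between the knockdowns were 5 without CSB knockdown replicate 2.

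Paralogs of the factors were listed for 15 of 16 genes and 14 were tested. In the CSA knockdown 1 rose and 7 fell (median log2 fold change -0.28). In the CSB knockdown 5 rose and none fell (0.05), and 6 were higher and 1 lower there than in the CSA knockdown (0.29). All tested genes were called at 18.8, 23.6 and 29.4%, and those with a mean of at least 1000 at 41.8, 54.6 and 59.9%. The paralogs' share lay above this last background in the CSA comparison and below it in the CSB comparison and between the knockdowns. GATA1, TBX4 and KLF5 are among the paralogs that do not reach that mean. TBX3, the closest relative of TBX2, had 8912 and 9150 scaled counts in the CSA knockdown, 20085 and 20667 in the CSB knockdown, and 11294 and 11214 in the control. It rose in the CSB knockdown (log2 fold change 0.86 ± 0.05 SE) and fell in the CSA knockdown (-0.32 ± 0.05 SE), the fall being lost without either control library (adjusted p at most 0.0733). KLF6 fell in the CSA knockdown (-0.63) and rose in the CSB knockdown (0.80). GATA4 had 1139 and 1140 scaled counts in the CSA knockdown, 2227 and 2410 in the CSB knockdown, and 1446 and 1395 in the control, and rose in the CSB knockdown (0.71). The count of 8 paralogs in the CSA comparison was 2 without either control library and 4 or 5 without any other, and the count of 5 in the CSB comparison was 3 without control replicate 2 or either CSB knockdown library and 8 with TMM, upper quartile scaling, edgeR or voom. The 7 called between the knockdowns were 4 without CSB knockdown replicate 1.

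Among factors of the mesenchymal state, the called ones were lower in the CSA knockdown and, but for 1, higher in the CSB knockdown. Of 16 such factors 15 were listed and 14 tested. None rose and 5 fell in the CSA knockdown (median log2 fold change -0.54), and 7 rose and 1 fell in the CSB knockdown (0.70). Between the knockdowns 9 were higher and 1 lower in the CSB knockdown (1.04). These factors were called at 35.7, 57.1 and 71.4%, against 18.8, 23.6 and 29.4% of all tested genes. Genes with a mean of at least 1000 were called at 41.8, 54.6 and 59.9%. Only TWIST1, FOSL2 and JUN of the tested mesenchymal factors reach that mean, so these last shares are not matched to the list. SOX9 had 278.6 and 253.7 scaled counts in the CSA knockdown, 1381 and 1351 in the CSB knockdown, and 606.7 and 576.8 in the control, with log2 fold changes of -1.15 ± 0.07 SE in the CSA knockdown and 1.21 ± 0.07 SE in the CSB knockdown. SNAI1 also fell in the CSA knockdown (-1.0) and rose in the CSB knockdown (1.18). SNAI2, a repressor of epithelial genes, had 183.2 and 136.4 scaled counts in the CSA knockdown, 1045 and 1010 in the CSB knockdown, and 393.9 and 365.6 in the control. Its log2 fold changes were -1.26 in the CSA knockdown, lost without control replicate 1 or CSB knockdown replicate 2 (adjusted p up to 0.0596), and 1.43 in the CSB knockdown, lost without either CSB knockdown library (up to 0.0572). TWIST1 rose in the CSB knockdown (1.00), and its value in the CSA knockdown was -0.12. The count of 5 in the CSA comparison was 3 without control replicate 1 or CSB knockdown replicate 2 and 8 with genes filtered at a mean of 50, and the count of 8 in the CSB comparison was 3 without either CSB knockdown library and 5 without either control library.

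Fibroblast markers moved in the same comparisons. Their summed level was 7836 to 8180 scaled counts in the CSA knockdown, 15652 to 16472 in the CSB knockdown and 12296 to 12625 in the control. Of the 7 listed, 4 fell and none rose in the CSA knockdown, and 5 rose and none fell in the CSB knockdown. All 7 were higher in the CSB than in the CSA knockdown. Of all tested genes 18.8, 23.6 and 29.4% were called in these comparisons, and 41.8, 54.6 and 59.9% of those with a mean of at least 1000. Their part in the changes of the factors was not tested. In bulk RNA, fewer cells of a type cannot be told apart from less RNA per cell.

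**Figure D5:**
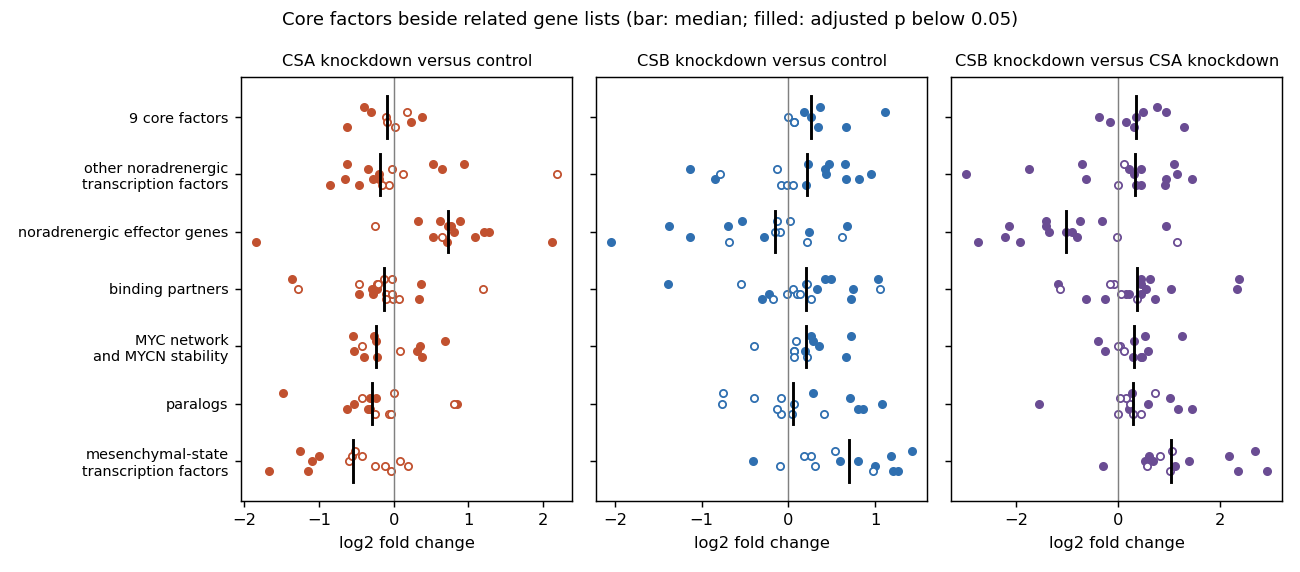
Log2 fold changes of the 9 core factors and of the tested genes of 6 related lists, 1 point a gene, for the 3 comparisons, with a black bar at each median and filled points for an adjusted p below 0.05. Effector genes have a median of 0.72 in the CSA knockdown and -0.15 in the CSB knockdown against the control, whereas the core factors have -0.09 and 0.26.

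Gene profiles most like each factor's were ranked by the root mean square distance between centred log2 values over the 6 libraries, among 12083 genes. SORBS3 (distance 0.0252) and CDKN1A (0.0265) came closest to TBX2. CDKN1A, an inhibitor of the cell cycle, had 2548 and 2706 scaled counts in the CSA knockdown, 6317 and 6186 in the CSB knockdown, and 3903 and 3930 in the control. The nearest genes were LZTS2 for PHOX2A (0.0202), RAPGEFL1 for HAND2 (0.0136), KCTD15 for GATA2 (0.0146), ARHGEF2 for GATA3 (0.0194), SERINC1 for ISL1 (0.0255), RPRD1B for MEIS2 (0.0147) and INPP5J for KLF7 (0.02). The closest gene to MYCN was PRR16, at 0.0982.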

How the data were processed

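Messenger RNA of SH-SY5Y cells was sequenced in 6 libraries, 2 in each of 3 groups taken from the labels. Reads were aligned to hg38 with HISAT2 2.0.4 and checked with FastQC, per the submitters' processing notes. How reads were counted and scaled, with which annotation and strand setting, is not given in the sources. The deposited values, headed FPKM per the file headers, are a signal: in each library 100% were whole multiples of the smallest value (tolerance 0.01 of that step), so they are read counts divided by 1 size factor per library. A gene with no entry was taken as 0. The planned test for raw counts was edgeR, and as the deposited values are normalized, limma was the main test and count models on the recovered reads were alternatives.

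Tests covered the 28388 genes whose mean reached 1 in 1 group or more. limma 3.58.1 (R 4.3.3) with a mean-variance trend was fitted to log2(scaled count + 1) of all 6 libraries, with 3 residual degrees of freedom and Benjamini-Hochberg adjustment over all genes. A gene rose or fell at an adjusted p below 0.05, and every adjusted p is from this test unless another tool is named. Adding 1 makes the fold changes of low genes smaller than the ratio of their levels. The 17 alternatives covered the pseudocount (0.5 and 5), the filter (none, and a mean of 50), TMM and upper quartile scaling, edgeR 4.0.16, DESeq2 1.42.0 and voom on recovered reads, the groups fitted, the replicate block and each library left out. The same alternatives were applied to the lists and their named genes after the data were seen. The scripts were tested on simulated data.

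The 9 factors and the gene lists were chosen with earlier results of these data known, so their counts are descriptions. From each list the text names genes from among the 6 with the largest change that passed the threshold in any comparison. DBH, DDC, SLC6A2 and SLC18A2 were chosen after their values were seen. Motifs were searched in RefSeq promoters. Shared 50-base windows of each factor's longest protein-coding transcript were searched in GENCODE release 29 transcripts. Markers of neuroblastoma, fibroblast, Schwann, blood, endothelial and epithelial cells were summed, the last giving 167.8 to 223.8 scaled counts per library.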

Additional observations from a re-analysis of the deposited data

How the results depend on the processing

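Of 459 values of the 9 factors under the 17 alternatives, 381 kept both their direction and their side of the threshold, 66 kept their direction and lost the call, and 12 changed sign. None of the 12 had passed the test. PHOX2A in the CSA knockdown against the control was -0.025 without control replicate 2 and -0.016 without CSA knockdown replicate 2, in a range up to 0.061 over the libraries left out (log2 fold changes here and below). HAND2 in the CSB knockdown against the control was -0.012 with TMM, -0.0098 with upper quartile scaling, -0.0078 with edgeR, -0.023 with DESeq2 and -0.0068 with voom. MEIS2 in that comparison was -0.0023 with TMM, -0.00014 with upper quartile scaling and -0.013 with DESeq2. KLF7 there was 0.015 without control replicate 2 and 0.034 without CSB knockdown replicate 1, in a range down to -0.036 over the libraries left out, and -0.071 to -0.088 with the other scalings and count models. The cause was not tested.

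Leaving out 1 library leaves a group with a lone sample, assumed to vary like the others, and lowers the degrees of freedom. The factors called were then 1 to 5 in the CSA knockdown against the control, 1 to 6 in the CSB knockdown against the control, and 3 to 8 in the CSB against the CSA knockdown. Over all genes the calls were then 1126 to 3306, 1773 to 5961 and 4384 to 6223, against 5334, 6706 and 8340 with all libraries. Other settings left 5 factors called in the CSA comparison, 4 to 6 in the CSB comparison and 7 to 9 between the knockdowns. Other scalings moved the median of all genes by -0.07 to -0.09 in the comparisons with the CSB knockdown.

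Replicate numbers are shared between groups, but same-numbered libraries did not deviate together (correlations -0.0402, -0.0323 and -0.0316 over 13397 genes). Whether they were handled together is not given in the sources, and these correlations cannot decide it. With the replicate block, 5259, 6575 and 8258 genes were called, and HAND2 was the 1 factor to lose a call, between the knockdowns (adjusted p = 0.071). Precision is limited by 2 libraries a group, and for MYCN by 117 to 300 reads. Scatter between the libraries of a group was unequal. For well-covered genes, the chi-square of reads per degree of freedom was 6.19 in the CSA knockdown, 3.1 in the CSB knockdown and 2.17 in the control. The main fit uses 1 spread per gene for all groups.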
